A study of Mus musculus with 2 samples.

Results

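The 10 genes described here encode proteins that neutrophils and their precursors store or carry in large amounts: Mpo, Elane, Prtn3, Ctsg, Ms4a3, S100a8, S100a9, Ngp, Camp and Stfa1. They were picked by symbol from the 27998 genes of the count matrix, each symbol had 1 matching entry, and all 10 were detected. Cells were dissociated from pooled fetal livers of C57BL/6 mouse embryos at e13.5, Ter119+ cells were depleted with magnetic beads, and an equal number of Ter119+ cells was then added back. CITE-seq, which counts transcripts and barcoded surface antibodies in the same single cells, gave 1 cDNA library and 1 antibody library, so there were no replicates, no treatment and no second genotype, and no test between conditions was possible. The labels call the cells erythroid progenitors, and the myeloid cells described below are the part of the liver suspension that was not removed. After filtering, 7244 of 7863 cells remained, with a median of 5802.5 unique molecular identifiers (UMIs) per cell.

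Neutrophils are made in steps, and the proteins of their granules are made in the same order. Promyelocytes, early precursors that still divide, make the azurophil granules with myeloperoxidase and serine proteases, and myelocytes and later cells make the specific and gelatinase granules. At this age the fetal liver is the main blood-forming organ of the mouse, and it holds myeloid progenitors beside the far more numerous erythroid cells. CD11b, the αM integrin encoded by Itgam, appears on the surface of granulocytes, monocytes and macrophages as they mature. The Ly6G/6C antibody binds Ly6G, a neutrophil protein, and Ly6C, which monocytes and some progenitors also carry.

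In adult marrow, 5 of the genes belong to the promyelocyte stage and are called early below. Mpo (ENSMUSG00000009350, chr11:87793784-87804412, plus strand, GRCm38) encodes myeloperoxidase, which makes hypochlorous acid. Elane (ENSMUSG00000020125, chr10:79886312-79888216, plus strand) encodes neutrophil elastase, and Prtn3 (ENSMUSG00000057729, chr10:79879667-79883174, plus strand), the gene of proteinase 3, lies 3137 bases away from it. Ctsg (ENSMUSG00000040314, chr14:56099885-56102574, minus strand) encodes the serine protease cathepsin G. Ms4a3 (ENSMUSG00000024681, chr19:11629499-11640851, minus strand) encodes a membrane-spanning protein of granulocyte and monocyte progenitors rather than granule cargo.

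The other 5 genes belong to later neutrophil stages and are called late below. S100a8 (ENSMUSG00000056054, chr3:90669071-90670034, plus strand) and S100a9 (ENSMUSG00000056071, chr3:90692630-90695721, minus strand) lie 22595 bases apart and encode the subunits of calprotectin, an abundant cytosolic protein that binds calcium and zinc. Ngp (ENSMUSG00000032484, chr9:110419808-110423012, plus strand) encodes neutrophilic granule protein, and Camp (ENSMUSG00000038357, chr9:109847377-109849456, minus strand) encodes the antimicrobial cathelicidin of the specific granules. Stfa1 (ENSMUSG00000071562, chr16:36277148-36285371, plus strand) encodes stefin A1, a cytosolic inhibitor of cathepsins. Stfa1 has nearly identical neighbours on chromosome 16, and the counting could split or lose reads among these copies, so its counts are uncertain.

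The antibody counts used to order the cells were read from 12-base tags. The tags of the CD11b and Ly6G/6C antibodies are shown, in capitals over their whole length, because all comparisons along surface protein rest on them.
CD11b: CATGATTGGCTC
Ly6G/6C: TGGTGAACCTGG

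The promoter stretches below are shown because the early and the late genes differed in which of a pair of short motifs they held. RefSeq promoters on GRCm38 were searched on both strands, from 250 bases before to 50 bases after each gene's start, and all 10 genes matched an entry. The motifs were AGGAAGT, the core letters of sites bound by PU.1 (the factor encoded by Spi1) and other Ets factors, and TTGCNNAA, the outer letters of sites bound by C/EBP factors. Both were chosen after the sequences had been read, so the split between early and late genes is a description and no test. AGGAAGT stood in 3072 of 32851 promoters (9.35%) and in 5 of the 10 genes, 4 early and 1 late. TTGCNNAA stood in 3547 of the promoters (10.8%) and in 4 of the genes, 1 early and 3 late. The Camp promoter held neither motif. Capitals mark the motif in each stretch.
Mpo (chr11:87793535-87793593, plus strand): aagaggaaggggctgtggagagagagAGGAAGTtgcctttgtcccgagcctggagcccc
Elane (chr10:79886202-79886260, plus strand): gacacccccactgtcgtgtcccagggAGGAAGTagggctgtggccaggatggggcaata
Prtn3 (chr10:79879547-79879605, plus strand): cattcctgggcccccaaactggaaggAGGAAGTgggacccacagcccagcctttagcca
Ctsg (chr14:56102748-56102806, minus strand): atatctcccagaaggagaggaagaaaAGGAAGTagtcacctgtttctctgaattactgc
S100a8 (chr3:90668873-90668931, plus strand): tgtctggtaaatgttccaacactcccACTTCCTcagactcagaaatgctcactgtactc
S100a9 (chr3:90695924-90695971, minus strand): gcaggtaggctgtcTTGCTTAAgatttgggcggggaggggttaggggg
Ngp (chr9:110419644-110419703, plus strand): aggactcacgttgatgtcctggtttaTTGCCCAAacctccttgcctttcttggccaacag
Stfa1 (chr16:36277013-36277072, plus strand): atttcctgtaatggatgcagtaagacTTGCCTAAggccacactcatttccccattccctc

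The match began 84 bases before the start in Elane and 94 bases before it in the neighbouring Prtn3. The 4 early genes held AGGAAGT on the strand of the gene, and S100a8 held it on the opposite strand. The TTGCNNAA match of Ms4a3, after the start, and a second one of Ngp, 11 bases before its start on the opposite strand, are not shown. A match of letters is a description of the window and not a binding site.

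Levels below are means over cells of each cell's count scaled to 1000000 UMIs (CPM), with a 95% interval. Intervals cover counting error only and say nothing of differences between embryos or libraries. CPM of a 3′ library compares 1 gene across cells and does not rank genes against each other.

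Every one of the 10 genes was concentrated in few cells. The 72 cells with the most UMIs of a gene, the highest 1% of kept cells, held from 40.7% (Prtn3) and 47.1% (Mpo) to 92.7% (Camp) and 94.4% (Ngp) of its UMIs. Mpo was counted in 15.3% of kept cells and Ngp in 6.02%, and the single cell with the most Ngp held 526 Ngp UMIs. S100a9 and S100a8 had the most UMIs in kept cells, 11069 and 11011, and Ms4a3 had the fewest, 1594.

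Clusters were made with the 10 genes left out of the variable genes, although genes that move with them, such as Ltf and Lcn2, still took part. Of the 18 clusters, 2 were named myeloid-like from their markers. The first held 672 cells, was led by Plac8, Emb and Cd34, raised 31 of 35 myeloid and monocyte markers, and also raised 8 of 12 markers of early progenitors. Its median antibody counts were 47.5 for CD11b, 3 for Ly6G/6C and 282.5 for cKit, the stem cell factor receptor of progenitors, and it is called progenitor-containing myeloid-like. The second held 42 cells, was led by Ltf, Gm5483 and Lcn2, and raised 21 of 35 of the same markers, the 60% that naming required. It is called CD11b-high myeloid-like. Its median counts were 1096.5 for CD11b, 18.5 for Ly6G/6C and 32.5 for cKit. Of the monocyte markers, 8 of 10 were at 0 in these 42 cells, among them Ctss, Ly86 and Ccr2, as were 7 of 13 macrophage markers. A separate cluster of 82 cells, named macrophage-like, raised 20 of the 35 myeloid and monocyte markers and 12 of 13 macrophage markers. The count of raised myeloid markers alone therefore does not set the 42 cells apart from it.

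The late genes dominated the 42 CD11b-high myeloid-like cells. S100a9 reached 41285 CPM (40330 to 42260), S100a8 35009 CPM (34127 to 35912) and Ngp 31942 CPM (31094 to 32812). Camp reached 24850 CPM (24115 to 25606) and Stfa1 17134 CPM (16536 to 17752). The 5 late genes together made up 13.2% of all UMIs of these cells, against 0.17% in the progenitor-containing cluster and 0.0068% in all other kept cells. Each late gene was found in nearly all of them: S100a8, S100a9, Camp and Stfa1 in 42 of 42 cells and Ngp in 41. Per cell, S100a9 ranged from 6 to 429 UMIs around a median of 186.5, and Ngp ranged from 0 to 526 UMIs around a median of 111.5.

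The early genes were uneven in the same 42 cells. Elane stood at 723 CPM (616 to 848) and Ms4a3 at 515 CPM (420 to 631), both above their levels in the progenitor-containing cluster. Mpo stood at 320 CPM (250 to 411) and Prtn3 at 1046 CPM (914 to 1197), both below them. Ctsg was nearly absent at 13.2 CPM (3.40 to 50.2), with 4 UMIs in 3 cells. The median cell had 0 UMIs of Mpo, Elane and Ctsg, and early UMIs were found in 29 of the 42 cells, so the means of Mpo and Elane came from 14 and 16 cells.

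The 672 progenitor-containing cells carried the early genes. Prtn3 averaged 1337 CPM (1302 to 1374), Mpo 1068 CPM (1036 to 1100), Elane 497 CPM (475 to 520), Ctsg 330 CPM (313 to 348) and Ms4a3 252 CPM (237 to 268). The late genes were present too, each at a lower level than in the CD11b-high myeloid-like cells. S100a8 averaged 686 CPM (659 to 713), Stfa1 486 CPM (465 to 509), S100a9 442 CPM (421 to 463), Camp 130 CPM (118 to 142) and Ngp 27.1 CPM (21.8 to 33.7).

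Between these clusters the late genes differed by 1 to 3 orders of magnitude and the early genes by much less, except Ctsg. The level in the 42 cells over that in the 672 cells was 1178 (947 to 1464) for Ngp, 192 (174 to 211) for Camp, 93.5 (88.6 to 98.6) for S100a9, 51.1 (48.7 to 53.5) for S100a8 and 35.2 (33.3 to 37.3) for Stfa1. For the early genes it was 2.04 (1.65 to 2.53) for Ms4a3, 1.45 (1.23 to 1.72) for Elane, 0.782 (0.682 to 0.898) for Prtn3, 0.300 (0.233 to 0.386) for Mpo and 0.0399 (0.0103 to 0.152) for Ctsg. Thus, against the mean of the 672 cells, Ms4a3 and Elane were higher in the CD11b-high cells and Mpo, Prtn3 and Ctsg were lower. All these differences lay beyond the counting interval. A finer clustering, described below, gave a cluster of 241 cells, 177 of them from the 672. Elane stood there at 1281 CPM (1221 to 1344) and Ms4a3 at 729 CPM (686 to 775), both above the CD11b-high cells. Hbb-bs, the adult β-globin that erythroid cells make, stood at 23010 CPM in the 42 cells, 6739 CPM in the 672 cells and 102041 CPM in all other kept cells. The late genes summed to 150221 CPM in the 42 cells and 1770 CPM in the 672 cells. CPM is a share of a cell's UMIs, so such totals enter the level of every other gene. The part of Hbb-bs and of the late sum in these ratios was not tested.

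**Figure D1:**
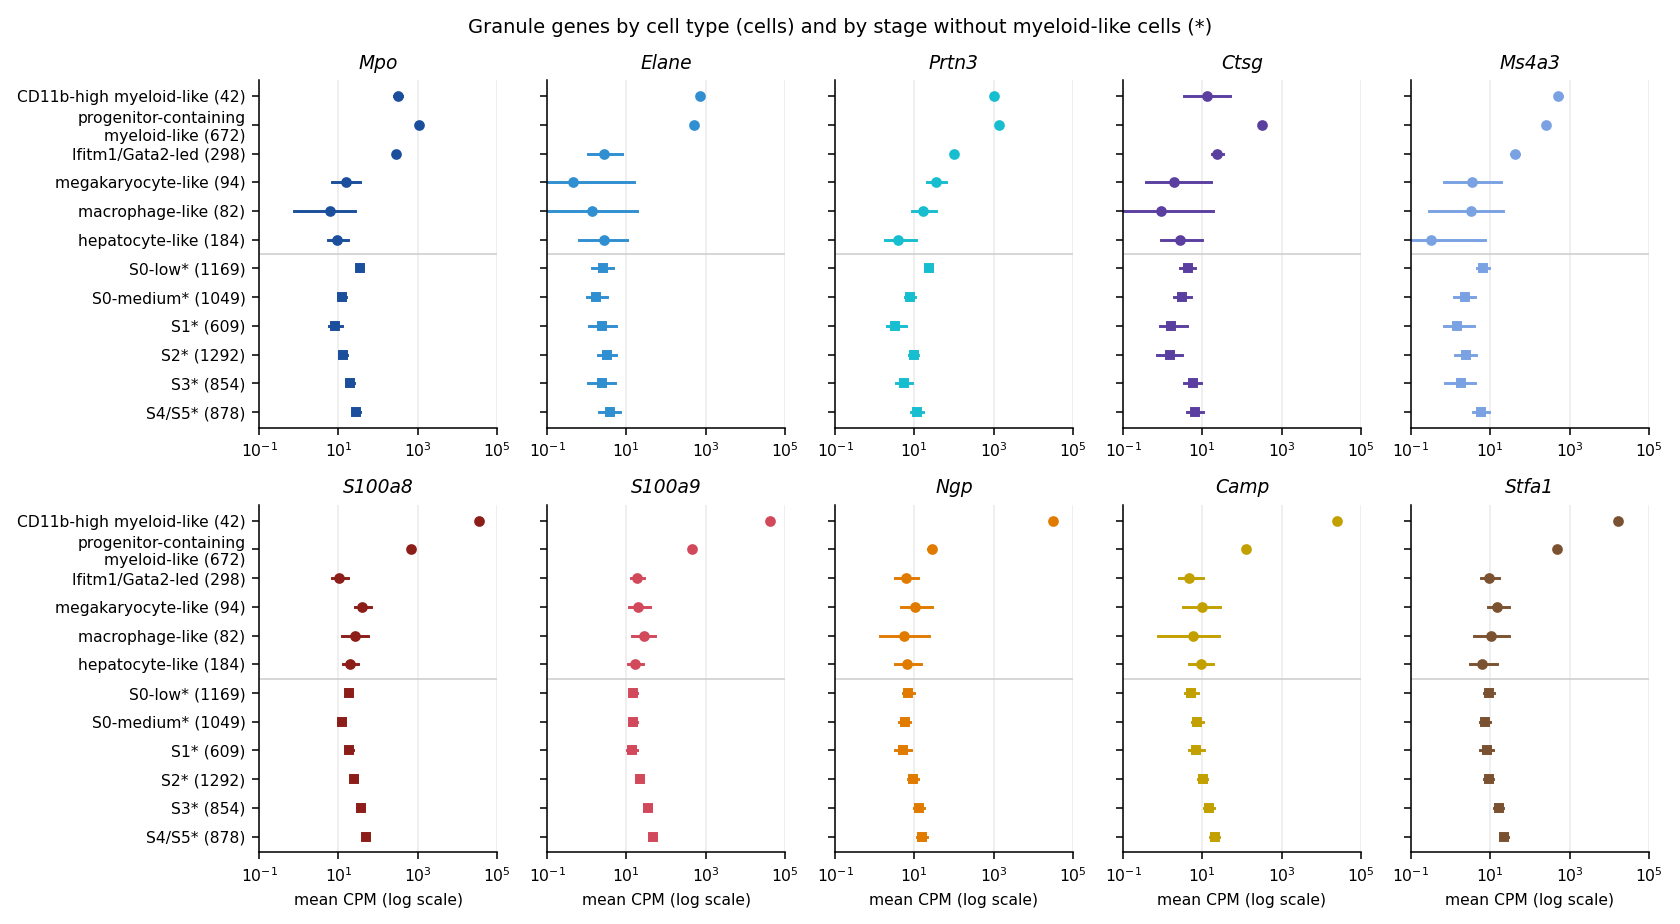
Mean CPM of each of the 10 genes (1 panel per gene, log axis) in 6 groups of cells by type (circles) and, with myeloid-like cells left out, in 6 stages (squares), with lines for 95% counting intervals (cut at the axis limit). The late genes stand near 17134 to 41285 CPM in the CD11b-high myeloid-like cells and at or below 686 CPM elsewhere, while the early genes other than Ctsg share both myeloid-like groups.

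Each gene's UMIs divided between the 2 myeloid-like clusters accordingly. The 42 cells held 92.3% of all Ngp UMIs, 83.3% of Camp, 73.1% of S100a9, 62.1% of S100a8 and 55.8% of Stfa1. The 672 cells held 91.0% of Ctsg, 89.1% of Prtn3, 88.7% of Elane, 82.5% of Mpo and 81.2% of Ms4a3. The 6530 cells outside both clusters together held between 4.49% (Elane) and 16.4% (Mpo) of a gene's UMIs.

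**Figure D2:**
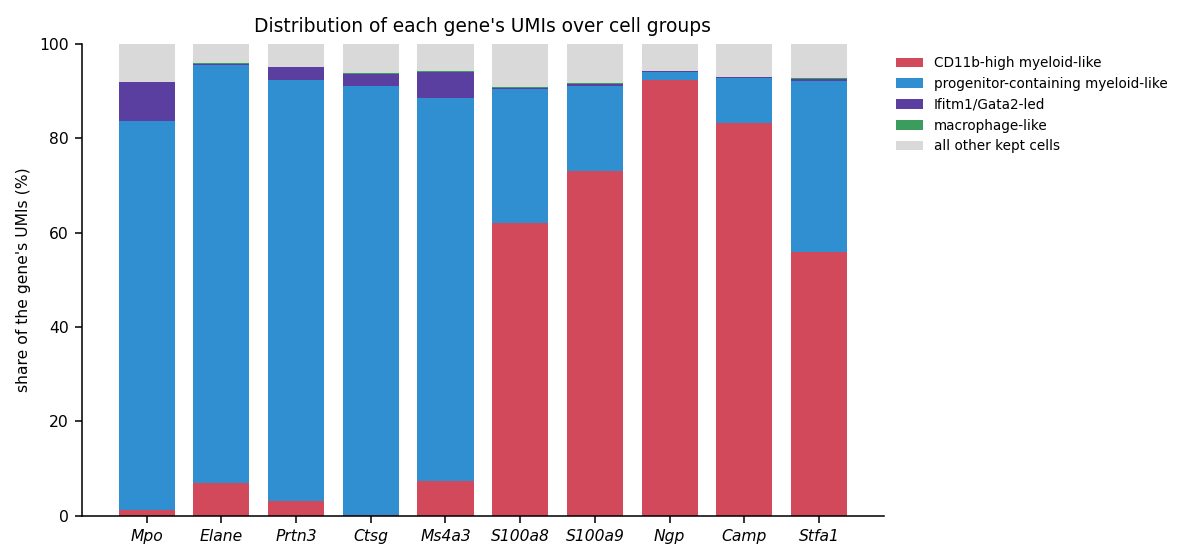
Stacked bars of the percentage of each gene's UMIs found in each group of cells, for the 10 genes. The 5 late genes have 55.8% to 92.3% of their UMIs in the CD11b-high myeloid-like cells and the 5 early genes 81.2% to 91.0% in the progenitor-containing cluster.

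All 10 genes were far higher in the 714 myeloid-like cells than in the 6530 other kept cells. A gene was counted as higher where the ratio of its mean CPM plus 10 was at least 4. Of 11238 genes with at least 50 UMIs in the cells compared, 250 (2.22%) were higher by that rule, and 10 of 10 granule genes were among them. The ratio of levels ran from 38.6 (35.9 to 41.5) for Mpo to 203 (180 to 228) for Ngp. The summed early genes had a ratio of 67.7 (64.4 to 71.3) and the summed late genes 127 (121 to 132), and the latter fell to 21.3 (20.4 to 22.3) without the 42 CD11b-high cells. The sums also moved with the clustering. At a finer resolution of 1.2 the early ratio was 4.13 and the late 148. That resolution named 240 cells myeloid-like and left the 241-cell cluster with the highest early genes unnamed, among the other cells. Those 241 cells held 64.9% of all Mpo and 80.9% of all Elane UMIs. The ratios were 26.3 and 271 with doublets kept, while a coarser resolution of 0.4 named no myeloid-like cells. Since clusters were made from genes that move with these, the contrast describes the clusters and is no test.

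Outside the myeloid-like clusters, a cKit-rich cluster carried Mpo and some Prtn3. It held 298 cells, was led by Ifitm1 and Gata2, and had a median cKit count of 472. It raised 5 of 12 early progenitor and 4 of 9 mast cell and basophil markers and was left unnamed. Mpo stood there at 279 CPM (255 to 306), which did not differ from the CD11b-high cells beyond counting error (ratio 1.15, 0.880 to 1.5). Prtn3 stood at 99.8 CPM (85.3 to 117), Ms4a3 at 41.9 CPM (32.9 to 53.6) and Ctsg at 24.0 CPM (17.2 to 33.7). Elane, at 2.70 CPM (1.09 to 7.92), and the late genes, at 49.6 CPM (40.4 to 61.4) in sum, were no higher there than over all 6530 cells outside the myeloid-like clusters, where they stood at 2.77 CPM and 83.0 CPM. Of the 10 genes' UMIs in this cluster, 54.6% were Mpo and 19.9% Prtn3.

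Macrophage-like cells, which carry CD11b but make no neutrophil granules, had low levels of all 10 genes. In these 82 cells the early genes summed to 28.0 CPM (16 to 51.1) and the late genes to 75.7 CPM (51.4 to 111). Hepatocyte-like cells, which should make none of these transcripts, had 18.6 CPM (13.1 to 28.2) of early and 58.1 CPM (46.6 to 73.4) of late genes. Values at or below this size in other cells are called background below. The word names this level only, since expression was not told apart from free RNA. Hepatocyte-like cells had a median depth of 12969 UMIs, and the part of depth was not tested.

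Shares of cells with a UMI, after thinning each cell to 2000 UMIs, followed the same order. Mpo was seen in 53.9% (50.02% to 57.7%, exact binomial) of progenitor-containing cells, 23.8% (12.1% to 39.5%) of CD11b-high cells and 1.63% (0.338% to 4.69%) of hepatocyte-like cells. Ngp was seen in 97.6% (87.4% to 99.9%) of CD11b-high cells, 0.893% (0.328% to 1.93%) of progenitor-containing cells and 1.63% (0.338% to 4.69%) of hepatocyte-like cells. The Ngp share in progenitor-containing cells was thus no higher than background, although its mean level of 27.1 CPM lay above the 6.52 CPM (3.21 to 14.6) of hepatocyte-like cells. Median depths before thinning were 6688 UMIs in the progenitor-containing, 5015.5 in the CD11b-high and 12969 in the hepatocyte-like cells.

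Finer clustering, at a Leiden resolution of 1.2 in place of 0.8, separated the progenitor-containing cells into 3 clusters in which the 10 genes differed. The 42 CD11b-high cells stayed together. The cluster with the highest early genes held 241 cells, 177 from the progenitor-containing and 64 from the Gata2-led cluster. It was led by Ifitm1, Plac8 and Cpa3 and was left unnamed by the naming rule. Mpo stood there at 2424 CPM (2345 to 2505), Prtn3 at 2366 CPM (2288 to 2447), Elane at 1281 CPM (1221 to 1344), Ctsg at 850 CPM (804 to 899) and Ms4a3 at 729 CPM (686 to 775). Its Cebpe level, the C/EBP factor of granulocyte maturation, was 286 CPM, and Camp stood at 340 CPM (310 to 374).

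A second finer cluster of 297 cells, led by Hmga2, Cd34 and Sox4, carried only part of the early set. All of its cells came from the 672 progenitor-containing cells, but on its own the naming rule called it early progenitor-like, so the 714 myeloid-like cells include cells that are not named so at the finer resolution. Prtn3 stood at 725 CPM (683 to 769) and Mpo at 447 CPM (416 to 480), against 48.9 CPM (38.5 to 62.2) for Ctsg, 20.5 CPM (12.3 to 32.5) for Elane and 11.1 CPM (6.03 to 19.7) for Ms4a3. The late genes summed to 52.4 CPM (42.7 to 64.7), at the background. The third finer cluster, 198 cells led by Lsp1, Ccr2 and Ifitm3, had Ccr2, the chemokine receptor of monocytes, at 346 CPM. It held S100a8 at 1061 CPM (1001 to 1124), S100a9 at 551 CPM (509 to 596) and Stfa1 at 391 CPM (358 to 429), but Camp only at 21.4 CPM (12.8 to 34.9) and Ms4a3 at 9.79 CPM (5.60 to 18.7). The mean of S100a8 in the Cebpe-containing cluster was 1024 CPM (970 to 1080), while Camp and Ms4a3 were far lower in the Ccr2-containing cluster. The S100a8 means of these clusters overlapped in counting error, but the median cell of each had 0 S100a8 UMIs. In the Ccr2-containing cluster a single cell held 438 of 1398 S100a8 UMIs, and a single cell 342 of 742 S100a9 UMIs. In the Cebpe-containing cluster the highest cell held 128 of 1691 S100a8 UMIs. The S100a8 means therefore do not show equal levels.

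Stages of erythroid differentiation were rebuilt from Ter119 and CD71 in cells with low lineage antibodies, from S0-low (low CD71, no Ter119) through S0-medium, S1, S2 and S3 to S4/S5 (high Ter119, falling CD71). CD11b and Ly6G/6C are among the lineage antibodies, so the gate itself removed the cells richest in late genes. The 820 lineage-high cells held all 42 CD11b-high and 313 of the 672 progenitor-containing myeloid-like cells, with early genes at 2064 CPM (2026 to 2102) and late genes at 9056 CPM (8957 to 9156). S0-low held a further 341 progenitor-containing cells, 22.6% of its 1510 cells.

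Across the stages the early genes were high in S0-low and low in every later stage. Their sum was 587 CPM (570 to 605) in S0-low, 30.8 CPM (26.9 to 35.4) in S0-medium, 28.6 CPM (23.8 to 34.5) in S1, 32.3 CPM (28.1 to 37.2) in S2, 37.5 CPM (31.5 to 44.5) in S3 and 75.6 CPM (66.7 to 85.6) in S4/S5. The intervals from S0-medium to S3 overlapped each other, and S4/S5 stood above them. Without myeloid-like cells S0-low kept 72.8 CPM (66.0 to 80.2), of which Mpo made up 35.8 CPM (31.1 to 41.1) and Prtn3 23.6 CPM (19.8 to 28.1). The Gata2-led cluster gave 208 cells to S0-low.

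From S0-low to S3, 3 of the 10 genes differed by the 4-fold rule, all lower in S3: Mpo, Elane and Prtn3 had ratios of S0-low over S3 of 9.84 (7.72 to 12.6), 21.9 (10.4 to 50.5) and 36.6 (24.8 to 53.8). Of 9410 genes compared, 564 (5.99%) were higher in S0-low. Elane and Prtn3, with 9 and 42 UMIs in S3, met the minimum of 50 UMIs only through S0-low. Ctsg, at 49.4 CPM against 5.78 CPM, and Ms4a3, at 28.7 CPM against 1.85 CPM, had ratios of 8.54 (5.31 to 14.1) and 15.5 (6.69 to 39.4) but missed the rule, which adds 10 CPM to both levels. The early values of S0-low came mostly from its myeloid-like cells. Without those, an alternative chosen after seeing the data, 0 of the 9 granule genes with enough UMIs passed the rule (Elane had too few), against 6.22% of 8919 genes higher in S0-low, and Prtn3, at 23.6 CPM against 5.60 CPM, had a ratio of 4.22 (2.59 to 6.97). Mpo, at 35.8 CPM against 19.5 CPM, had a ratio of 1.83 (1.38 to 2.44), and the early sum one of 2.07 (1.68 to 2.55). The late sum showed no such fall in all cells. It was 115 CPM (107 to 123) in S0-low and 116 CPM (105 to 128) in S3, a ratio of 0.992 (0.880 to 1.12), with S100a8 at 1.0 (0.804 to 1.25) and Ngp at 0.508 (0.340 to 0.768), although Stfa1 was higher in S0-low at 1.79 (1.31 to 2.45). Without the myeloid-like cells the late sum was lower in S0-low, at 54.9 CPM against 116 CPM, a ratio of 0.474 (0.410 to 0.549). Without the lineage gate the ratio of the late sum became 7.2 (6.89 to 7.52).

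In erythroid stages without myeloid-like cells the late sum climbed from 47.4 CPM (42.6 to 52.8) in S0-medium to 155 CPM (142 to 169) in S4/S5. In UMIs per cell the climb was small, from 0.477 to 0.639, while the median depth of a cell fell from 10320 to 3943.5 UMIs. With globin left out of the totals the climb was larger, from 49.9 CPM to 532 CPM. The early sum then went from 28.3 CPM to 196 CPM. S100a8 made up 17.4% of the 10 genes' UMIs in S0-medium, 23.9% in S3 and 23.4% in S4/S5, and Mpo made up 15.4%, 12.4% and 13%. Prtn3 made up 10.6%, 3.88% and 6.02%, and the early genes together 35.2%, 22.9% and 26.6%. In hepatocyte-like cells these shares were 24.2% and 14.5%. The late sum in hepatocyte-like cells was 58.1 CPM (46.6 to 73.4). In CPM, S1, at 52.6 CPM (45.8 to 60.7), and S2, at 75.8 CPM (69.1 to 83.1), overlapped it. S3, at 116 CPM (105 to 128), and S4/S5 lay above it beyond counting error. The early sum of S4/S5, 55.7 CPM (48.0 to 64.5), also lay above the 18.6 CPM (13.1 to 28.2) of hepatocyte-like cells. But the 184 hepatocyte-like cells were deeper, at a median of 12969 UMIs. They held 165 UMIs of the 10 genes, 71.5% of them late. The 854 cells of S3 held 619 (77.1% late) and the 878 of S4/S5 held 764 (73.4% late). Among non-myeloid cells the late sum was 119 CPM at depths of 2000 to 4000 UMIs and 48.5 CPM at 10000 to 40000. The part of depth was not tested. Whether cells of these stages made the transcripts or were counted with free RNA was not tested.

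Surface CD11b sorted the cells by all 10 genes. CD11b-high cells were the 362 cells with the highest 5% of counts (at least 86), and CD11b-low cells the 4155 cells at or below the median of 6. All 10 genes were higher in CD11b-high cells by the 4-fold rule, and of 10107 genes compared 451 (4.46%) were. The ratio was 405 (347 to 474) for Ngp, 301 (259 to 350) for Camp, 245 (222 to 271) for S100a9, 229 (199 to 264) for Stfa1 and 203 (185 to 223) for S100a8. Among the early genes it was 200 (151 to 267) for Elane, 95.6 (72.0 to 128) for Ms4a3, 80.7 (70.6 to 92.2) for Prtn3, 67.2 (52.0 to 87.4) for Ctsg and 41.6 (37.3 to 46.5) for Mpo. The late sum, 255 (242 to 269), rested on the 42 CD11b-high myeloid-like cells and was 41.4 (39.1 to 43.8) without them, while the early sum, 70.7 (65.7 to 76.1), was 72.5 without them.

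The CD11b-high cells were a mixture. They held 201 progenitor-containing myeloid-like cells, 68 macrophage-like cells, all 42 CD11b-high myeloid-like cells, 21 cells of an unnamed cluster led by Mest and Sparc, and 10 Gata2-led cells. All 12 tested macrophage markers were higher in CD11b-high cells as well, with C1qc at 632 CPM against 2.56 CPM, but the macrophage-like cells had the 10 genes near background and leaving them out raised the late ratio to 313 (297 to 330). Counts of the non-specific IgG averaged 0.199 in CD11b-high and 0.0195 in CD11b-low cells, and median depth was 7069 against 5189 UMIs. The part of depth and of non-specific binding was not tested.

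Along CD11b in doubling steps the early and the late genes rose over different ranges. The early sum was 139.8 CPM at CD11b counts of 8 to 15, 1127 CPM (1080 to 1176) at 16 to 31, 2135 CPM (2064 to 2209) at 32 to 63 and 3552 CPM (3421 to 3688) at 128 to 253. Above that it no longer rose in order, with 2423 CPM, 3842 CPM and 2090 CPM in the 3 highest groups. The late sum was still 85.7 CPM (72.9 to 101) at counts of 16 to 31, where 153 of 350 cells were progenitor-containing myeloid-like. It was 388 CPM (355 to 425) at 32 to 63, 1671 CPM (1581 to 1768) at 128 to 253, 11900 CPM at 256 to 497, 45284 CPM at 512 to 982 and 160518 CPM at 1024 to 3178. The 3 highest groups held 86, 35 and 28 cells, of which 5, 10 and 26 were CD11b-high myeloid-like. The steps were taken over all kept cells and so include macrophage-like cells. Those had a median CD11b count of 202 and an early sum of 28.0 CPM, and 68 of the 82 were CD11b-high. Their part in the levels of the upper groups was not tested.

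Ctsg and Ngp marked the ends of this order. Ctsg peaked at 357 CPM (319 to 400) at counts of 128 to 253 and fell to 98.2 CPM (77.1 to 127), 77.7 CPM (46.7 to 134) and 19.8 CPM (5.10 to 75.3) in the 3 highest groups. Ngp stood at 4.63 CPM (1.46 to 17.4) at counts of 128 to 253, no higher than in cells with a CD11b count of 0 or 1 (9.86 CPM, 6.03 to 15.6), and then at 1277 CPM (1149 to 1417), 5928 CPM and 37140 CPM.

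**Figure D3:**
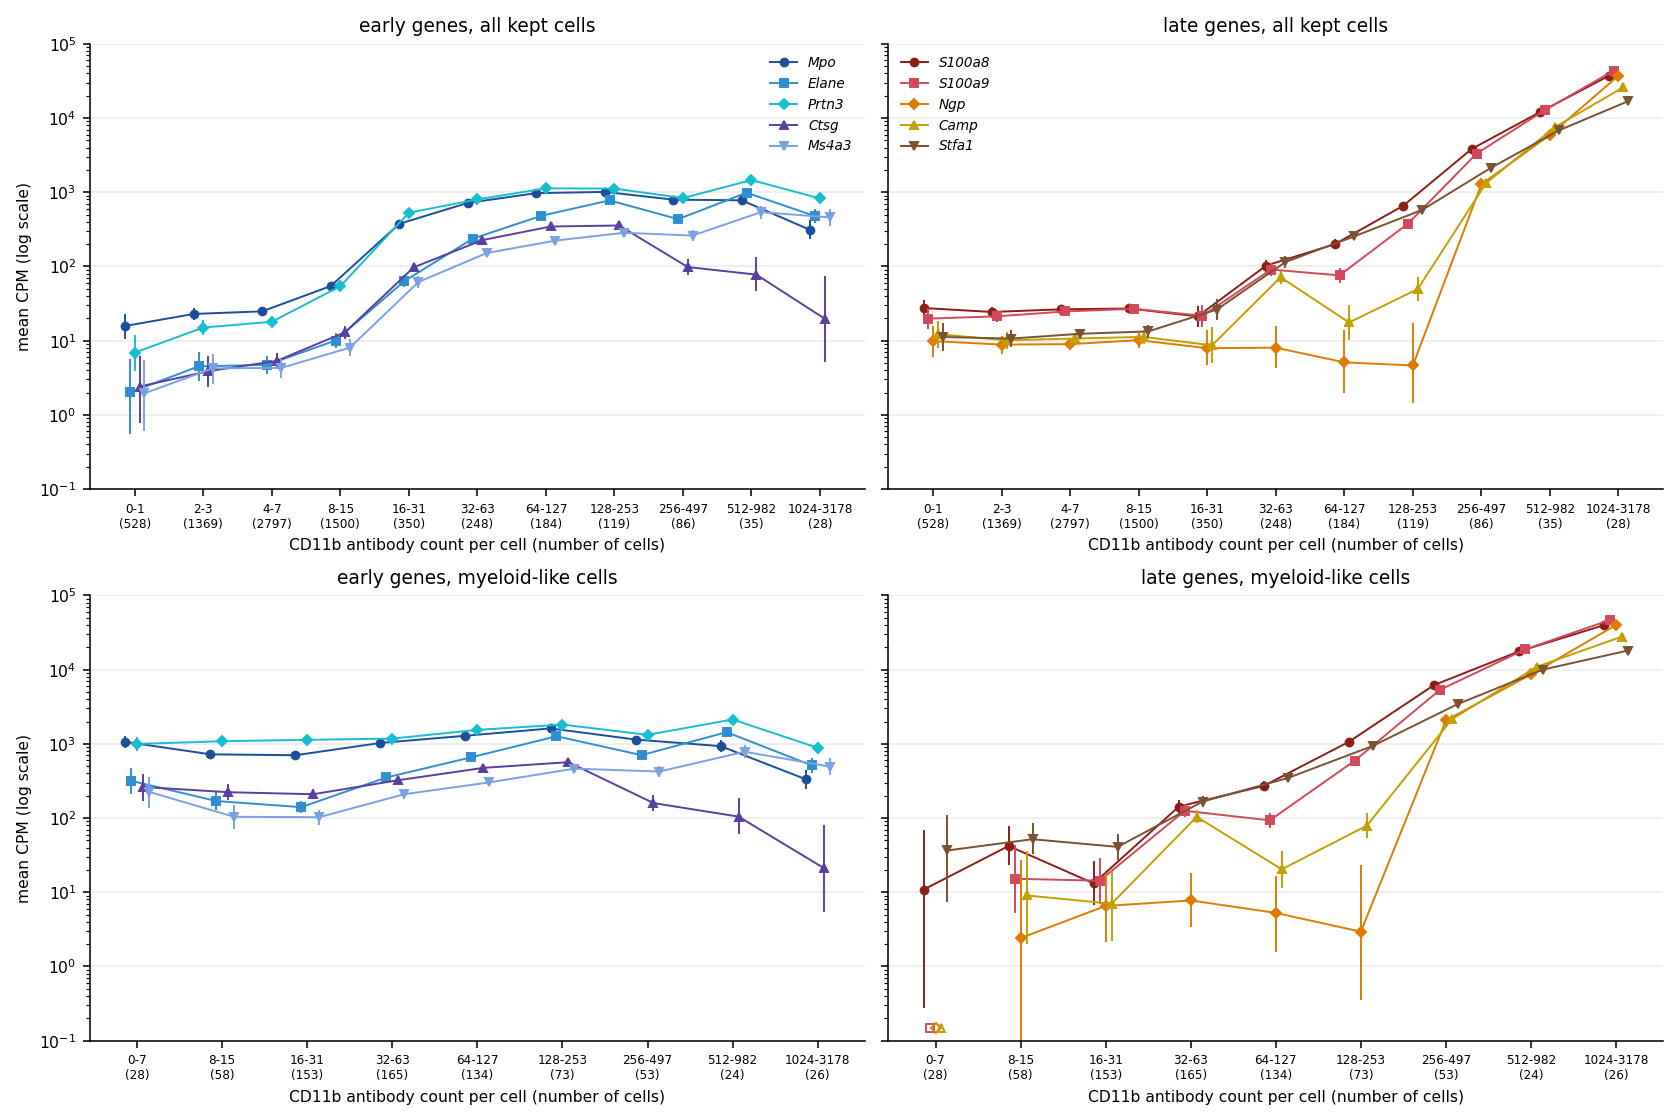
Mean CPM (log axis) of the early genes (left) and late genes (right) against the CD11b antibody count in doubling steps, in all kept cells (top) and in myeloid-like cells (bottom), with 95% counting intervals (cut at the lower axis limit), cell numbers per group and open symbols for groups with 0 UMIs. In all kept cells, which include macrophage-like cells, early genes level off from CD11b counts of about 64. Ctsg falls there above 253, and Ngp rises above its level at the lowest counts only from 256.

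Within the 714 myeloid-like cells the mean level of the early genes rose little with CD11b and that of the late genes steeply. The 354 cells above the median CD11b count of 54 were compared with the 360 cells at or below it. All 5 late genes and none of the early genes passed the 4-fold rule, against 41 of 7410 genes compared (0.553%). Ngp stood at 3835 CPM against 6.39 CPM, S100a9 at 5683 CPM against 52.2 CPM and S100a8 at 5394 CPM against 60.5 CPM. The early sum was 4303 CPM (4218 to 4390) against 2577 CPM (2506 to 2649), a ratio of 1.67 (1.61 to 1.73), led by Elane at 3.81 (3.41 to 4.26) and Ms4a3 at 2.66 (2.31 to 3.07). The ratio of the early sum depended on which cells were named myeloid-like: with called doublets kept it was 0.977 (0.939 to 1.02) and over all deposited cells 0.810 (0.779 to 0.842), where the clustering named 319 and 305 cells in place of 714.

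All 42 CD11b-high myeloid-like cells lay above the median, so the split was repeated in the 672 progenitor-containing cells alone, with 336 cells on each side of a CD11b count of 47.5. S100a8 stood at 1308 CPM against 62.8 CPM, a ratio of 20.8 (17 to 25.5), S100a9 had a ratio of 15.3 (12.4 to 18.8) and Stfa1 of 10.6 (8.83 to 12.6). These 3 genes passed the 4-fold rule, against 21 of 7297 genes (0.288%). Camp, at 205 CPM against 54.3 CPM, and Ngp, at 47.9 CPM against 6.34 CPM, had ratios of 3.78 (3.0 to 4.74) and 7.55 (3.74 to 15.1) and did not pass it. After thinning, Ngp was seen in 0.893% of cells on each side, so its ratio, from 92 and 14 UMIs, rested on few cells. Camp was seen in 5.65% and 1.49%. The early ratios were 3.45 (3.08 to 3.87) for Elane, 2.30 (1.98 to 2.66) for Ms4a3 and between 1.35 and 1.56 for Prtn3, Mpo and Ctsg. Early UMIs were again seen in a smaller share of cells above the split, 70.8% against 80.4% after thinning. Median depth was 7308 UMIs above and 5522 UMIs below the split, and its part was not tested.

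Transcripts of the antibody targets were also read along the CD11b split of the progenitor-containing cells. Of 7 tested, 1 passed the 4-fold rule. It was Ly6c2, at 107 CPM above and 3.75 CPM below the split. Ly6c2 encodes a Ly6C protein and not the target of the CD11b antibody, and it was among the 3 highest genes of this split. Itgb2, the partner chain of CD11b, had a ratio of 2.73 (1.70 to 4.44). Itgam itself had a ratio of 1.72 (0.946 to 3.26), which was not distinguishable from 1 at its depth of 123 UMIs in all kept cells. In the 42 CD11b-high cells Itgam stood at 137 CPM (85.1 to 213), Ly6c2 at 227 CPM (157 to 320) and Ly6g, with 11 UMIs in all kept cells, at 34.3 CPM (14.1 to 79.7).

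Among the 42 CD11b-high cells Ngp and S100a9 were again higher with more CD11b, but the early sum was lower, at a ratio of 0.630 (0.532 to 0.749). The 21 cells above their median CD11b count had 1.6 times (1.51 to 1.69) the Ngp level of the other 21 and 1.34 times (1.28 to 1.40) the S100a9 level. They had 0.446 times (0.320 to 0.629) the Elane level and 0.663 times (0.504 to 0.875) the Prtn3 level. Mpo did not differ beyond counting error (0.995, 0.601 to 1.67). Groups of 21 cells from 1 library carry cell-to-cell differences that these intervals do not cover.

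At the high end of the CD11b split in myeloid-like cells stood other neutrophil genes, and at the low end Mzb1, Ebf1 and Cpa3. The highest ratios outside the 10 genes were those of Gm5483, a stefin A relative (947 CPM against 9.33 CPM), Ltf, which encodes lactoferrin (485 CPM against 1.78 CPM), and Lcn2, which encodes lipocalin 2 (424 CPM against 0.481 CPM). The lowest were Mzb1, a B-lineage chaperone (10.5 CPM against 72.4 CPM), Ebf1, a B cell factor (1.87 CPM against 32.7 CPM), and Cpa3, a mast cell protease (10.0 CPM against 51.9 CPM). Mzb1 alone passed the 4-fold rule, as 1 of 7410 genes (0.0135%) did in this direction. Of 3 lymphoid and 2 mast cell and basophil genes tested, 0 were lower by the rule. Their median log2 ratios were −0.40 and −0.94, against −0.06 over all genes. Within the progenitor-containing cells alone the highest were Lgals3, Fcnb and Ly6c2 and the lowest again Ebf1, Cpa3 and Mzb1.

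By mean level, cKit ran the other way. The 356 myeloid-like cells above the median cKit count of 266 had 0.0408 times (0.0392 to 0.0425) the late sum of the other 358 cells and 0.851 times (0.824 to 0.879) the early sum. In the progenitor-containing cells alone the ratios were 0.173 (0.164 to 0.184) and 0.750 (0.727 to 0.775). Elane was the early gene with the lowest ratio there, 0.534 (0.489 to 0.584), and Mpo had the highest, 0.820 (0.774 to 0.869). Over all myeloid-like cells Ctsg did not differ beyond counting error (1.08, 0.970 to 1.21). After thinning, early UMIs were seen in 77.5% of the cells above the cKit median and 71.8% of the others. Median depth was 7980 against 5038 UMIs, and its part was not tested.

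Along Ly6G/6C the late genes differed strongly and the early genes little, with smaller ratios than along CD11b. The 366 cells with at least 11 counts were compared with the 4109 cells at or below the median of 3. All 5 late genes and none of the early genes passed the 4-fold rule, against 259 of 10526 genes (2.46%). The late ratios ran from 15.3 (14.3 to 16.3) for Stfa1 to 45.3 (42.1 to 48.8) for Ngp. The early ratios were 3.63 (3.17 to 4.15) for Elane, 2.1 (1.93 to 2.29) for Prtn3, 1.95 (1.56 to 2.43) for Ms4a3 and 1.38 (1.24 to 1.54) for Mpo, and Ctsg did not differ (0.994, 0.791 to 1.27).

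The late ratio rested on 25 CD11b-high myeloid-like cells among the 366. Without that cluster the late sum had a ratio of 3.30 (3.17 to 3.44) in place of 24.0 (23.4 to 24.7), and Ngp one of 0.616 (0.465 to 0.815), below 1. The Ly6G/6C-high cells also held 79 macrophage-like cells, 58 progenitor-containing myeloid-like cells, 51 Mest- and Sparc-led cells and 23 hepatocyte-like cells. Mean IgG counts were 0.224 in Ly6G/6C-high and 0.0248 in Ly6G/6C-low cells, and the median Ter119 count was 60 against 13. Of other cell types' markers, 12 of 12 tested macrophage genes were higher in Ly6G/6C-high cells (median log2 ratio 4.29), as were 8 of 13 megakaryocyte genes (2.18) and 6 of 8 endothelial and stromal genes (2.77). The part of these cells and of non-specific binding was not tested. Without macrophage-like cells the early ratio was 2.44 (2.31 to 2.58) and the late ratio 30.6 (29.8 to 31.4).

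Within the myeloid-like cells the Ly6G/6C split was weaker than the CD11b split. The 317 cells above the median count of 3 had 4.08 times (3.97 to 4.19) the late sum and 1.15 times (1.11 to 1.19) the early sum of the other 397. In the progenitor-containing cells alone these ratios were 2.92 (2.78 to 3.07) and 1.22 (1.18 to 1.26).

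With both antibodies together, the level of the 10 genes followed CD11b, and the balance of early and late genes differed with Ly6G/6C. The 185 cells high for Ly6G/6C alone had late genes at 128 CPM (104 to 156) and early genes at 182 CPM (158 to 211), close to the 97.1 CPM (93.7 to 101) and 236 CPM (231 to 241) of the 6697 cells high for neither. The 181 cells high for CD11b alone had the most early transcript, 5273 CPM (5141 to 5408), with Mpo at 1526 CPM (1457 to 1599). The 181 cells high for both had less, 1192 CPM (1129 to 1259), with Mpo at 260 CPM (233 to 292). Their late sum was the highest, 24169 CPM (23825 to 24517) against 16532 CPM (16246 to 16823) for CD11b alone, and Ngp was 5456 CPM against 2049 CPM.

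The make-up of these antibody groups differed. Of the cells high for both, 67 were macrophage-like, 51 progenitor-containing and 25 CD11b-high myeloid-like, whereas 150 of those high for CD11b alone were progenitor-containing and 17 CD11b-high myeloid-like. With macrophage-like cells left out, the 114 remaining cells high for both had early genes at 1874 CPM (1774 to 1980), still below the 5302 CPM (5170 to 5438) of the cells high for CD11b alone, and late genes at 38321 CPM (37775 to 38874).

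**Figure D4:**
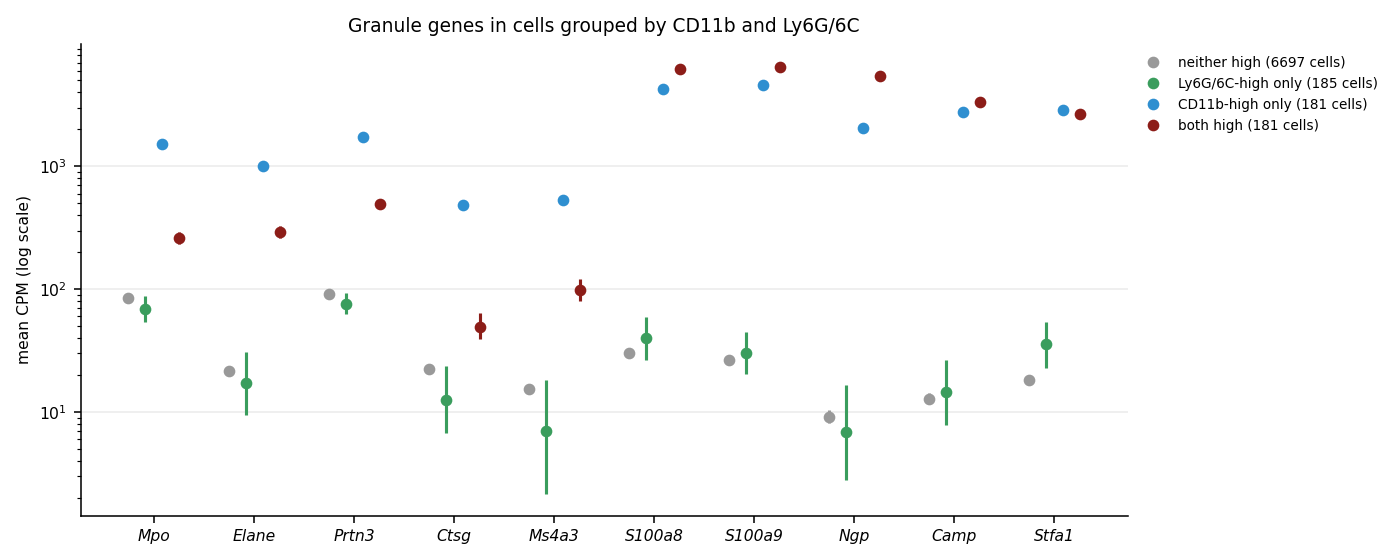
Mean CPM (log axis) of the 10 genes in cells grouped by whether CD11b, Ly6G/6C, both or neither was among the highest 5% of counts, with 95% counting intervals. The early genes are highest in cells high for CD11b alone (Mpo at 1526 CPM), 4 of 5 late genes are highest in cells high for both, and cells high for Ly6G/6C alone resemble cells high for neither.

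Cells were also sorted by the 10 genes themselves, to read the antibodies in each class. After thinning to 2000 UMIs, a cell was called raised for a set above 1 early or 2 late UMIs, the 99th percentiles of 3024 erythroid reference cells, of which 0.463% and 0.231% lay above. Early genes alone were raised in 396 cells, of which 336 were progenitor-containing myeloid-like and 229 lay in S0-low. Both sets were raised in 93 cells, 71 of them progenitor-containing and 20 CD11b-high myeloid-like. Late genes alone were raised in 47 cells, 22 of them CD11b-high and 14 progenitor-containing myeloid-like. None of the 82 macrophage-like cells was raised for either set, and 42 cells of the Gata2-led cluster were raised for early genes alone.

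CD11b, which took no part in this sorting, increased from class to class and cKit decreased. The median CD11b count was 29 (quartiles 16 and 56.3) in cells with early genes alone, 192 (111 and 581) in cells with both and 497 (242 and 1138) in cells with late genes alone. The median cKit count was 278.5, 149 and 21 in the same order, and the median Ly6G/6C count 3, 5 and 41. Cells with neither set had a median CD11b count of 5. The 20 cells of the CD11b-high cluster with both sets and its 22 cells with late genes alone together made up all 42, so early transcripts were raised in part of that cluster only.

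**Figure D5:**
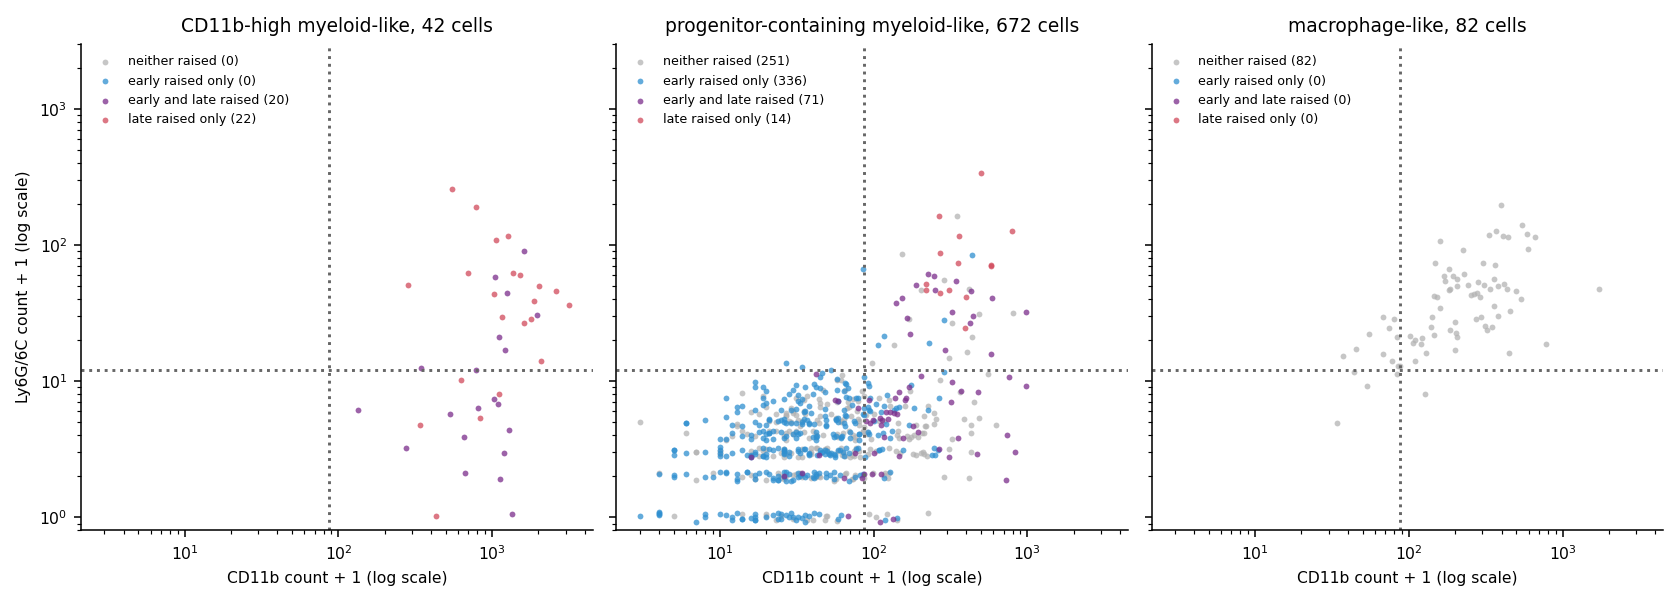
CD11b count plus 1 against Ly6G/6C count plus 1 on log axes, 1 point per cell (vertical jitter added), for the 42 CD11b-high myeloid-like, 672 progenitor-containing myeloid-like and 82 macrophage-like cells, coloured by whether early, late, both or neither set was raised. Dotted lines mark the limits of the high groups at 86 and 11, and 67 of the 82 macrophage-like cells lie past both, with no set raised.

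Other genes of neutrophil granules, from lists made for this comparison, were mostly higher in CD11b-high cells too. Of 15 other azurophil genes, 13 had enough UMIs, and 11 of these were higher in CD11b-high than in CD11b-low cells by the 4-fold rule. Of all genes compared 4.46% were. The median log2 ratio of the 13 was 3.06, against 0.17 over all genes. The 3 with the highest levels in CD11b-high cells were Lyz2, which encodes lysozyme, at 4118 CPM against 19.0 CPM, Calr, which encodes the chaperone calreticulin, at 819 CPM against 295 CPM (not past the rule), and Ctsc, which activates the granule serine proteases, at 747 CPM against 18.2 CPM. Of 24 specific and gelatinase granule genes, 14 had enough UMIs, and 13 of these were higher. UMIs of both groups were added for the minimum, so a gene could enter through the CD11b-high cells alone. The counts of both lists are therefore a description and no test. Cyba, a subunit of the oxidase that makes superoxide, stood at 1104 CPM against 48.8 CPM, Anxa1, an anti-inflammatory phospholipid-binding protein, at 664 CPM against 2.44 CPM and Ltf at 474 CPM against 2.59 CPM.

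Within the myeloid-like cells these lists parted in the way the early and late genes did. Above the median CD11b count 12 of the 13 specific and gelatinase genes with enough UMIs (24 listed) were higher by the 4-fold rule. Of 13 azurophil genes with enough UMIs (15 listed) 2 were, and of all genes compared 0.553% were. The median log2 ratios were 2.89 and 0.66 against −0.06 over all genes. The minimum counts UMIs of both sides together, so a gene such as Ltf could enter through the higher side alone. These counts describe the lists and are no test. Lyz2 stood at 14751 CPM in the 42 CD11b-high cells and 1244 CPM in the progenitor-containing cells, whereas Calr (74.5 CPM and 1066 CPM) and Ctsc (57.5 CPM and 359 CPM) were lower in the CD11b-high cells. Ltf, at 4055 CPM (3747 to 4385) and 2.94 CPM, and Anxa1, at 4013 CPM and 132 CPM, resembled Ngp and Camp.

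The closest relatives of the late genes by family did not all follow them. All 6 tested stefin A relatives (8 listed) were higher in CD11b-high cells, against 4.46% of all genes compared. Genes could again enter through the CD11b-high cells alone, so this count is no test. Among the 6 were BC100530 at 1289 CPM, Gm5483 at 926 CPM and Stfa3 at 267 CPM. They stood at 8791 CPM, 6891 CPM and 2076 CPM in the 42 cells, with the reservation about shared reads given for Stfa1. Of 5 S100 relatives, which encode other small calcium-binding proteins, 3 were higher: S100a11 at 207 CPM against 5.56 CPM, S100a10 at 189 CPM against 31.6 CPM and S100a13 at 68.8 CPM against 12.9 CPM. S100a10 was at 8.25 CPM in the 42 cells and 184 CPM in the progenitor-containing cells, the reverse of S100a8.

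Of 10 granulocyte transcription factors 6 were higher in CD11b-high cells, where 4.46% of all genes compared were. Cebpb stood at 696 CPM against 28.5 CPM, Spi1, which encodes PU.1, at 417 CPM against 7.78 CPM, and Cebpe at 257 CPM against 1.62 CPM. None of 11 passed the rule in the CD11b split of myeloid-like cells, where 0.553% of all genes compared did. At that share the count does not set the 11 genes apart. Cebpe was at 1255 CPM (1098 to 1432) in the 42 CD11b-high cells and 109 CPM in the progenitor-containing cells, while Spi1 was at 630 CPM and 358 CPM. Of 11 myeloid receptors 6 were higher, with Fcgr3, an Fc receptor, at 292 CPM against 3.42 CPM, the lectin receptor Clec12a at 207 CPM against 1.75 CPM and Ccr2 at 148 CPM against 0.651 CPM. Ccr2 was at 0 in the 42 cells, which allows up to 34.5 CPM.

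Of 8 proliferation genes none passed the 4-fold rule for CD11b-high over CD11b-low, where 4.46% of all genes compared were higher and 0.762% lower. At those shares the count does not set the 8 genes apart. Top2a stood at 294 CPM against 319 CPM, a ratio of 0.921 (0.849 to 0.999), and Cdk1 at 184 CPM against 165 CPM, 1.11 (1.01 to 1.23). Mki67 was lower in CD11b-high cells, at 158 CPM against 275 CPM, a ratio of 0.575 (0.515 to 0.643). In the 42 CD11b-high cells Top2a stood at 391 CPM and Mki67 at 277 CPM, against 282 CPM and 106.5 CPM in the progenitor-containing cells. Of the erythroid lists, 9 of 12 genes of committed erythroid progenitors and 12 of 15 of terminal differentiation were lower in CD11b-high cells, as 77 of all genes compared (0.762%) were.

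The genes most like the 10 in pattern were sought by Pearson's r of log2 mean CPM plus 10 over the 18 clusters, among 11228 genes. Closest to the early sum were Atp8b4 (0.982), Stap1 (0.972), Fmnl1 (0.966), Napsa (0.963) and Fgl2 (0.959). Closest to the late sum were BC100530 (0.991), Gm5483 (0.989), AI839979 (0.984), Fcnb (0.984) and Mcemp1 (0.983). By single gene, and named after their values were seen, Gfi1, which encodes a transcriptional repressor, was among the 5 closest to Elane, Prtn3 and Ms4a3. Cebpe was among the 5 closest to Stfa1. The closest to Ctsg included Hoxa7 and Hoxa9, both at 0 in the 42 cells. These values describe 18 clusters of 1 library, most of them near background for all 10 genes, and carry no p-value.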

How the data were processed

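The authors mapped the 10x 3′ cDNA reads to mm10 with Cell Ranger and counted the antibody tags with CITE-seq-Count, and the deposited values are raw counts per gene and cell and per antibody and cell. Whether antibody reads of the same molecule were collapsed is not given in the sources used here. The cDNA library held 58606632 UMIs, with 2510 to 38047 per cell and a median of 5707. The deposited counts carried 10 antibodies, and no barcode was duplicated.

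The limits on a cell were 300 to 5000 detected genes and a mitochondrial share of no more than 9%, and doublets called by Scrublet in scanpy 1.11.5 (expected rate 6%) were removed. Of the 7863 cells, 508 failed the limits and 111 more were doublets. Counts were normalised to 10000 per cell, and 2000 variable genes, from which the 10 genes were then taken out, gave 16 components, 30 neighbours and Leiden clusters at resolution 0.8 (seed 7). A cluster was called "-like" where at least 60% of at least 3 markers had a log2 fold over 1, with a lead of 20 points over the next list and no other list ahead among the top 10 genes, the monocyte markers being counted with the myeloid list. That rule was set after the clusters had been seen. Stages were rebuilt by k-means on centred log ratios of Ter119 and CD71 in cells with summed lineage antibody counts up to 95.8 (median plus 2 median absolute deviations), and 217 cells received no stage.

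Levels have gamma intervals, ratios combine the intervals of both levels, and shares are exact binomial in cells thinned to 2000 UMIs. All intervals are at 95% and cover counting error only, since 1 library gives no test between samples. The 4-fold rule used mean CPM plus 10 and genes with at least 50 UMIs. Levels, ratios and the 4-fold rule were tried on simulated counts that held counting error only, as the intervals assume. That could not test them under spread between cells. Clusters, names, stages and thinning were not simulated. The 10 genes and the lists were chosen with earlier results of these data known. Named beside the 10 were the 3 genes of each list with the highest mean CPM in CD11b-high cells, the genes of the antibody targets, the 5 genes nearest each sum in pattern, and the 3 highest and 3 lowest of the CD11b split. The genes leading a cluster, Cebpe in the finer clusters and the genes nearest single members were named after their values were seen. Clusters were made with igraph 0.11.9, stages with scikit-learn 1.9.0, intervals with scipy 1.17.1 and plots with matplotlib 3.10.9, under Python 3.11.15. Promoters and gene positions came from RefSeq on GRCm38.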

Additional observations from a re-analysis of the deposited data

How the results depend on the processing

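Ratios of the summed early and late genes, early first, moved with the following choices. Leaving the CD11b-high myeloid-like cluster out, chosen after seeing the data, gave late ratios of 21.3 for myeloid-like over other cells, 41.4 for CD11b and 12.5 for the CD11b split of myeloid-like cells, Ly6G/6C ratios of 1.75 and 3.30, and an Ngp ratio of 0.616 for Ly6G/6C, which reversed. Leaving all myeloid-like cells out, also chosen after seeing the data, gave 2.07 and 0.474 for S0-low over S3 (Ctsg 0.745 and Stfa1 0.568 reversed). With pooled CPM the ratios were 12.8 and 0.862 for S0-low over S3, 83.5 and 111 for myeloid-like, 87.0 and 197 for CD11b, 1.81 and 19.6 for Ly6G/6C, and 1.6 and 57.5 for the split. With globin left out they were 7.92 and 0.476 for S0-low over S3 (Stfa1 reversed, 0.875), 44.2 and 66.0 for myeloid-like, 45.6 and 130.004 for CD11b, and 22.3 for late genes with Ly6G/6C. With doublets kept they were 26.3 and 271 for myeloid-like and 0.977 and 36.0 for the split, where the early sum, Mpo (0.85) and Ctsg (0.573) reversed. Over all deposited cells they were 31.1 and 289.8 for myeloid-like, 65.4 and 239 for CD11b, 1.63 and 21.1 for Ly6G/6C, and 0.810 and 31.1 for the split, where the early sum, Mpo (0.672), Prtn3 (0.825) and Ctsg (0.492) reversed. Subtracting the S4/S5 level gave 2.19 and 34.4 for Ly6G/6C and 216 for late genes in the split, and no value where the lower group fell to or below 0. A high group of 2% gave 55.1 and 611 for CD11b and 1.70 and 36.0 for Ly6G/6C, and one of 10% gave 59.4 and 129, and 1.64 and 10.4. Antibody counts as shares gave 119.5 and 275 for CD11b, 1.41 and 9.90 for Ly6G/6C (Ms4a3 reversed, 0.868) and 174 for late genes in the split. Without macrophage-like cells the ratios were 86.9 and 313 for CD11b and 2.44 and 30.6 for Ly6G/6C. The highest 25% against the lowest 25% by CD11b gave 1.87 and 411 for the split. With the 10 genes among the variable genes, late genes had 194 for myeloid-like and early genes 1.83 for the split. Resolution 1.2 gave 4.13 and 148 for myeloid-like and 1.59 and 130 for the split (Ctsg reversed, 0.818), and resolution 0.4 named no myeloid-like cells. Without the lineage gate S0-low over S3 was 19.4 and 7.2 (S100a9 6.6 and Ngp 7.76 reversed), and with log10 counts it was 34.4 and 1.78 (S100a9 reversed, 1.34). With 1 CPM added in place of 10, 1123 genes were higher and 211 lower for CD11b, 837 and 2 for Ly6G/6C, 852 and 437 for myeloid-like, and 87 and 5 for the split, while a minimum of 1 UMI changed no count. The cause of these moves was not tested.

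Every value comes from 1 library of pooled embryos, and its intervals omit differences between embryos, libraries and cells. The late genes rest on 42 cells. Which cells were named myeloid-like varied from none at resolution 0.4 to between 240 and 714 cells under the other clusterings, and the early ratio of the split varied with it. Stages and cell types were rebuilt here. In CPM, low levels in erythroid cells overlapped those of hepatocyte-like cells in S1 and lay above them in S3 and S4/S5. Hepatocyte-like cells were deeper than those of S3 and S4/S5, and expression was not told apart from free RNA. Median depth differed between the groups compared, and its part was not tested. No paired analysis was possible because there was 1 sample.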
